A study of Mus musculus with 7 samples.

Results

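Among mouse double-negative T cells (DNT cells, T cells with neither CD4 nor CD8) that had been stimulated in culture, 90 cells held transcripts of several helper cytokines at once. They were chosen by their own counts: a cell was selected when it had at least 2 unique transcript counts (UMIs, each standing for 1 captured RNA molecule) of each of at least 3 of the 6 genes Ccl20, Il22, Il2, Il4, Il13 and Il3, called the selection genes below. The rule gave 85 of 1791 cells in activated replicate 1 (4.75%, exact Clopper-Pearson 95% interval 3.81% to 5.835%) and 5 of 1549 cells in activated replicate 2 (0.323%, 0.105% to 0.752%), out of 3340 activated cells and 28101 cells in all 7 libraries. The intervals cover counting error only. Of the unstimulated cells, 0 met the rule, which allows shares of up to 0.0741% and 0.0446% in naive DNT replicates 1 and 2, 0.0596% in CD4, 0.0645% in CD8 and 0.0699% in the TCRab library. The unstimulated cells were shallower, with medians of 4119 and 7556 UMIs in naive DNT replicates 1 and 2 and 3987 to 4899 in the others. The activated replicates had medians of 15795 and 9386 UMIs. A shallow cell meets the rule less easily, and these shares are not matched for depth. Since the 6 selection genes chose the cells, their levels in the selected cells are a description and carry no test.

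All cells came from spleens of 8-week-old male C57BL/6 mice and were sorted as CD3+ NK1.1- TCRαβ+ TCRγδ- cells. For the activated groups, sorted naive DNT cells spent 3 days in culture with anti-CD3, anti-CD28 and IL-2 at 20 ng/ml. The naive DNT sort also required CD4- CD8- cells that did not bind the αGal-CD1d or LPC-CD1d tetramer, reagents for NKT cells. The CD4, CD8 and TCRab (unsplit TCRαβ+) libraries are the unstimulated comparison groups. Stimulation and culture cannot be told apart, since the series has no culture without stimulation here. Replicate 1 of the DNT groups and the 3 other libraries were made with 10x Chromium 3′ kit v2 and replicate 2 of the DNT groups with kit v3, so replicate and kit cannot be told apart either. Nothing in the labels says whether mice were pooled or whether replicates came from separate animals, so the spread between the 2 activated libraries may be technical.

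Helper T cells are usually sorted by the cytokines they release. IL-4, IL-5 and IL-13 mark type 2 cells, which act on B cells, eosinophils and epithelium. IL-17A, IL-17F and IL-22 mark type 17 cells, which act on neutrophils and barrier epithelium, and CCL20 attracts cells that carry CCR6. IL-2 and IL-3 are growth factors for T cells and for myeloid precursors that freshly stimulated T cells of several kinds make. Transcription of these genes after T cell receptor signalling depends on NFAT, a factor held in the cytoplasm until calcium rises, which binds sites with a GGAAA core.

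The start sites of the cytokine genes are shown because these genes were on together in the same cells. The sequences are the 250 bases before the RefSeq start site in GRCm38.p6, 5′ to 3′ on the gene's strand, with each GGAAA on either strand (TTTCC on the other) in capitals. Il2 and Il13 have 1 entry each, Il4 is shown by the entry that starts farther upstream of its 2 entries, and Il17a is shown as the type 17 cytokine outside the selection rule.
Il2, chr3:37125955-37126204, minus strand: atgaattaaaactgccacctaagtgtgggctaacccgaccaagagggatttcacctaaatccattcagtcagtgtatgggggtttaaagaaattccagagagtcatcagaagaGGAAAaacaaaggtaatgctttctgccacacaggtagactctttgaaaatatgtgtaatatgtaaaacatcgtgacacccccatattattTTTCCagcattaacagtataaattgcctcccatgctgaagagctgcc
Il4, chr11:53618666-53618915, minus strand: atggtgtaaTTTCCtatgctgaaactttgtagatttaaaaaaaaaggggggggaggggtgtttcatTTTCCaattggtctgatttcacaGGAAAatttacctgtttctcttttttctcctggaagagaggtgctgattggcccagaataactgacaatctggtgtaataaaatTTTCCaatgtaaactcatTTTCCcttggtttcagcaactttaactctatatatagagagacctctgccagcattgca
Il13, chr11:53634703-53634952, minus strand: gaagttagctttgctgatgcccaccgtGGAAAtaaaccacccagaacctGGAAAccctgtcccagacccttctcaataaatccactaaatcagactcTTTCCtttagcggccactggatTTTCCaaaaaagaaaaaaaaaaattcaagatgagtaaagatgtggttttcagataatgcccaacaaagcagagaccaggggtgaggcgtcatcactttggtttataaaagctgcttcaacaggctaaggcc
Il17a, chr1:20730655-20730904, plus strand: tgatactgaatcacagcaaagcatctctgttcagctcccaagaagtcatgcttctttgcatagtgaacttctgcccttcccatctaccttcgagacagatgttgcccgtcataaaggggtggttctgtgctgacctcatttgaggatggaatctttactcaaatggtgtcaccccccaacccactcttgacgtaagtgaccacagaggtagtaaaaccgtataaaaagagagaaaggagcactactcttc
The Il4 window held 5 GGAAA cores, the Il13 window 4, the Il2 window 2 and the Il17a window 0. Ccl20 had 3, Il22 and Il3 had 1 each, and the other Il4 entry had 0. Of 32851 mouse windows of this length, 55.6% held at least 1 such core, 6.39% at least 3 and 0.39% at least 5. The AP-1 motif TGANTCA (its own reverse complement) was in the Il17a window alone of these 8 entries and in 6.75% of all windows. The GATA motif AGATAA, on either strand, was in the Il22, Il13 and Il3 windows and in 9.99% of all windows. The NFAT core followed by the AP-1 motif after 4 free bases had 0 matches in the 8 entries, against 0.0548% of all windows, and TATAAA was in the Il22, Il2, Il13 and Il17a windows, against 12.4%. A match of letters is a description of the sequence and not a measured binding site.

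In activated replicate 1, Ccl20 (chromosome 1, 83116766 to 83119167 in GRCm38) had 7336 UMIs in the selected cells against 3892 in the other 1706 cells, which is 1842 CPM (UMIs of a gene per 1000000 UMIs of the cells) against 127 CPM. Il2, the commonest of the 6, was at 2 or more UMIs in 78 of 85 selected cells against 448 other cells, with 1503 CPM against 229 CPM. Il13 was at 575 CPM in the selected cells against 39.9 CPM in the other cells, Il22 at 491.0 against 19.4 CPM and Il4 at 433 against 20.7 CPM. Il3 was the rarest, at 14.3 CPM in the selected cells against 0.622 CPM, with at most 9 UMIs in any selected cell. The counts were uneven within the selected cells: the median cell held 3 UMIs of Ccl20, 5 of Il2, 2 of Il13 and 1 each of Il22 and Il4, and the highest cells held 922, 1070, 456, 421 and 339. The 85 cells carried between 46.1% (Il2) and 76.7% (Il22) of all UMIs of these genes in the library. One UMI was found more widely, for example of Ccl20 in 498 other cells, of which 116 had 2 or more. Free RNA in droplets can give single UMIs in cells that do not express a gene, and its part was not tested.

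In activated replicate 2, all 5 selected cells held Ccl20, with 9952 CPM in the selected cells against 26.9 CPM in the other 1544 cells. Il13 was in 4 of the 5 cells (2227 against 19.4 CPM), Il4 in 3 (1237 against 20.5 CPM), Il2 in 2 (49.2 against 3.36 CPM) and Il3 in 0. The deepest cell, with 126965 UMIs, held 2322 UMIs of Ccl20, 1227 of Il22, 2 of Il2 and 1048 of Il17a. That cell alone carried nearly all Il22 of the library, where 1239 Il22 UMIs were counted in total. The cell with 38471 UMIs had 311 of Ccl20, 497 of Il13 and 216 of Il4, and the cell with 45252 UMIs had 276, 10 and 198. The cell with 63264 UMIs had 27 of Ccl20, 257 of Il13 and 12 of Il4, and the one with 71313 UMIs had 500 of Ccl20, 15 of Il2 and 5 of Il13. Il2 was low in the whole replicate 2 library, at 3.98 CPM against 376 CPM in replicate 1. Every selection gene was at 2 or more UMIs in fewer cells of replicate 2 than of replicate 1. These were 6 against 526 cells for Il2, 18 against 179 for Ccl20 and 1 against 61 for Il22. For Il4 they were 21 against 67, for Il13 25 against 84 and for Il3 1 against 13. The cause of the smaller number of selected cells was not tested. In the naive DNT libraries Ccl20 and Il3 had 0 UMIs, and Il4 was at 2.42 and 5.28 CPM.

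Most selected cells held the minimum number of genes. In replicate 1, 62 cells had 3 of the 6 genes, 18 had 4, 5 had 5 and 0 had all 6. The commonest sets were Ccl20 with Il22 and Il2 (14 cells), Ccl20 with Il2 and Il13 (11 cells), Il2 with Il4 and Il13 (11 cells) and Ccl20 with Il2 and Il4 (9 cells). Of the 85 cells, 67 held Il4 or Il13, 36 held Il22 and 20 held both kinds (Il22 with Il4 or Il13). These counts depend on the choice of selection genes, which sets 2 type 2 cytokines, Il4 and Il13, against Il22 alone. Taken singly, Il13 was at 2 or more UMIs in 53 selected cells, Il4 in 42 and Il22 in 36. The counts therefore cannot show that type 2 cytokines prevail in these cells. Over the whole replicate 1 library, Il4 and Il13, which lie next to each other on chromosome 11, were in the same 35 cells, which is 52.2% of the 67 Il4 cells and 41.7% of the 84 Il13 cells. In replicate 2 they shared 11 cells, 52.4% of the 21 Il4 cells and 44.0% of the 25 Il13 cells. Il22 and Il4 shared 8 cells in replicate 1, 13.1% of the Il22 cells and 11.9% of the Il4 cells. A cell with 62645 UMIs shows the mixed pattern, with 336 UMIs of Il22, 163 of Il13, 19 of Il4, 4 of Il2 and 2 of Ccl20, and another with 53887 UMIs held 56 of Ccl20, 45 of Il2, 21 of Il22, 12 of Il13 and 5 of Il4. Beside the threshold, 29 cells of replicate 1 had the third gene at exactly 2 UMIs and 62 cells missed selection with the third gene at 1 UMI. The medians of these 2 sets were 38062 and 37154 UMIs per cell and 48 and 42 UMIs of the 6 genes summed.

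**Figure D1:**
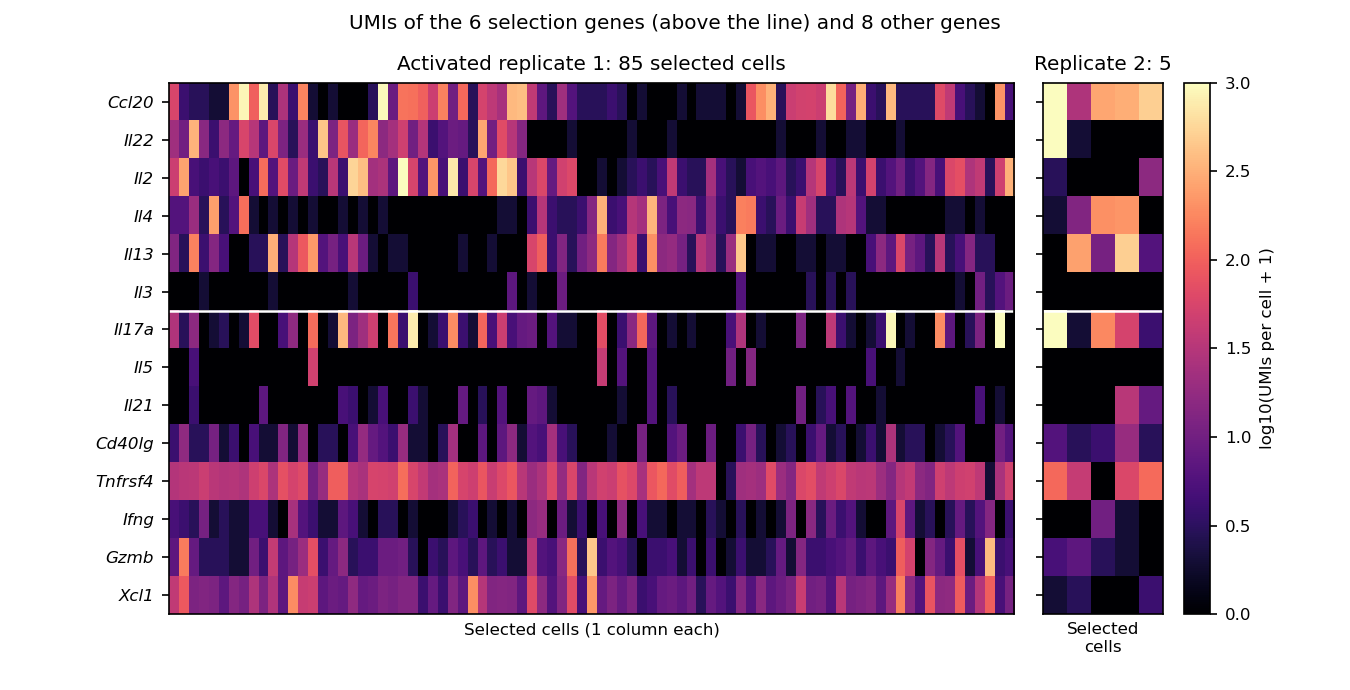
Each column is a selected cell of activated replicate 1 (left, 85 cells) or 2 (right, 5 cells), and colour gives log10(UMIs + 1) of the 6 selection genes above the white line and of 8 other genes below it. Cells are ordered by which selection genes they hold; Tnfrsf4 was at 2 or more UMIs in 83 of 85 and 4 of 5 cells, and Il17a in 42 of 85 and 4 of 5.

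Each selection gene can be read in cells chosen without it, that is on at least 3 of the other 5 genes. In replicate 1, Ccl20 was then at 1276 CPM in 43 cells against 266 CPM in the rest of the library, and Il3 at 7.50 CPM in 80 cells against 1.56 CPM. Il13 was at 330 CPM in 49 cells against 84.0 CPM, Il22 at 190 CPM in 64 cells against 62.6 CPM, Il2 at 849 CPM in 30 cells against 353 CPM and Il4 at 135 CPM in 58 cells against 62.1 CPM. All 6 were higher in the cells chosen by the others, by between 2.18 times (Il4) and 4.81 times (Il3). Against rest-of-library cells of the same UMI range the gaps were smaller, at 154 against 134 CPM for Il4, 977 against 798 CPM for Il2 and 1608 against 624 CPM for Ccl20. In replicate 2 the rule without the gene in question left between 0 and 5 cells, with 0 or 1 UMI of it. No cell there held more than 3 of the genes. A cell chosen on 3 others therefore had under 2 UMIs of the gene by construction, and the comparison cannot show a gap in replicate 2.

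The selected cells were deep as a group. They held a median of 44748 UMIs in replicate 1 against 15060 in the other cells, and 63264 against 9376 in replicate 2. Of the selected cells, 61 of 85 and 4 of 5 lay above the 90th percentile of their library, at 37032 and 39469 UMIs, though some other cells were deeper still, up to 104497 and 130328 UMIs against at most 87025 and 126965 in selected cells. Cells with exactly 2 of the genes were intermediate in replicate 1, with a median of 36234 UMIs in 107 cells, and at 20549 UMIs in 8 cells of replicate 2. A deep cell reaches 2 UMIs more easily, and a cell with more RNA is also deeper: these cannot be told apart here. The test of the other genes therefore used cells thinned at random to 5000 UMIs each, and a second comparison took cells of a matched UMI range. Marker lists are given over unthinned cells, with no test. When the rule itself was applied to thinned cells it was met by 10 cells in replicate 1 and 2 in replicate 2. The selected cells also held more genes, with medians of 5125 and 6609 against 2892 and 2547 in the other cells. No doublet caller was run, so some selected barcodes may hold more than 1 cell, and their part was not tested.

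**Figure D2:**
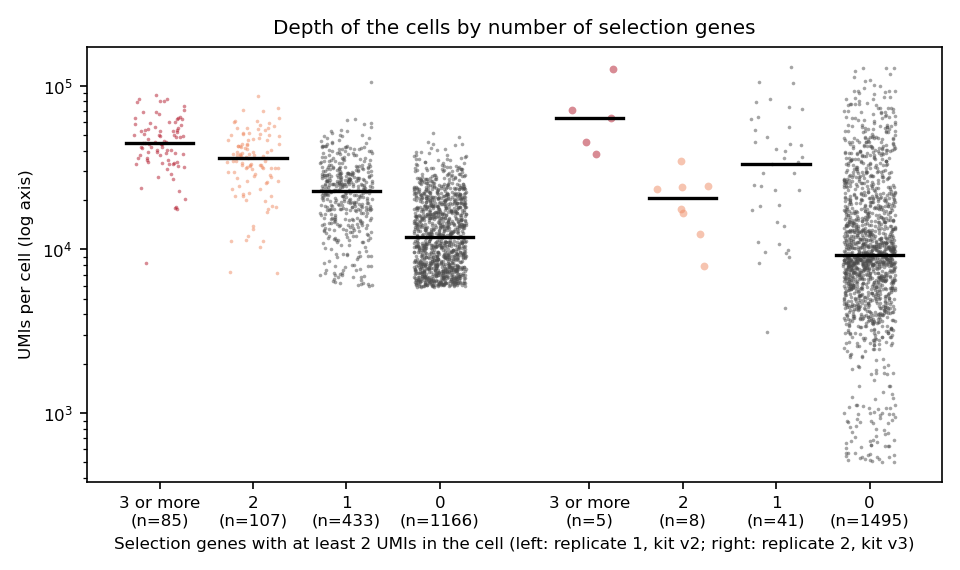
Each point is a cell, placed by the number of selection genes it held at 2 or more UMIs, with UMIs per cell on a log axis and the median as a black bar (replicate 1 left, replicate 2 right). The median was 44748 UMIs with 3 or more genes, 36234 with 2, 22727 with 1 and 11895 with 0 in replicate 1, and 63264, 20549, 33014 and 9173 UMIs in replicate 2, where cells with 1 gene had a higher median than cells with 2.

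The T cell list summed to 2149 and 4090 CPM in the selected cells of replicates 1 and 2 against 2058 and 4349 CPM in the other cells. The sums of the replicates cover different genes, since Trac and Trbc2 are counted in replicate 2 alone (336 and 1576 CPM in its selected cells). Within it Cd3d, a chain of the CD3 complex, was at 656 and 779 CPM against 725 and 954 CPM, while the adhesion gene Cd2 was at 22.6 and 11.6 CPM against 103.5 and 126 CPM and the adaptor gene Lat at 791 and 692 CPM against 464 and 279 CPM. Cd4 and Cd8a had 0 UMIs in all 90 cells, and Cd8b1 had 19 UMIs in the selected cells of replicate 1 (4.77 against 2.88 CPM) and 0 in those of replicate 2. The B cell list summed to 7.53 and 2.90 CPM against 10.2 and 13.5 CPM. Cd79a and Pax5 had 0 UMIs in the selected cells, while Ebf1 had 15 in replicate 1 (3.77 against 0.36 CPM), as had Cd79b (3.77 against 9.73 CPM). The macrophage genes Lyz2, Csf1r and C1qa had 0 UMIs in all 90 cells. The summed myeloid list was higher in the selected cells, at 312 and 235 CPM against 139 and 158 CPM, and nearly all of it was Cst3 (311 and 235 CPM), which is not specific to myeloid cells. The NK cell list summed to 7.28 and 0 CPM against 84.2 and 157 CPM. The mast cell and basophil list was at 3.26 and 0 CPM against 40.3 and 0.12 CPM, with 953 UMIs of Mcpt8 in the other cells of replicate 1, where 4 cells held 2 or more. Trdc, a γδ T cell constant gene, is counted in replicate 2 alone and had 0 UMIs in its 5 selected cells. No barcode was shared between the 2 activated libraries; activated replicate 1 shared 10 to 15 barcodes with each of the other kit v2 libraries and activated replicate 2 shared 3 with naive replicate 2.

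UMIs were summed over the selected cells and over the other cells of each activated library, and the 2 pairs of sums were compared for every gene but the 6. The genes that were higher in the selected cells included Il17a, Tnfrsf4, Cd40lg, Lta and Ccl17, and the lower ones included Xcl1, Gzmb, Ifng and Klrd1. In every list most of the tested members did not pass. Of 8946 genes tested, 55 were higher (0.615%) and 34 lower (0.38%) by edgeR's quasi-likelihood test with the library as a block (Benjamini-Hochberg adjusted p under 0.05). The median log2 difference of all genes tested was -0.19. Below, CPM values are over thinned cells and are given for replicate 1 and then replicate 2. All 89 genes differed in the called direction in replicate 1 and 76 did in replicate 2, where 13 of the higher genes had 0 UMIs in the 5 cells. The 76 include 24 lower genes that also had 0 UMIs there. In replicate 2 a single UMI in the selected cells is worth 40.1 CPM, against 2.37 CPM in replicate 1, so a level below that in the 5 cells reads as 0 or as 40.1 CPM. The filter on low counts asked for about 3.04 CPM in 2 of the 4 sums. Il21, Ebi3, Mpzl2 and Ifih1 were below it in both sums of other cells, and Gramd3, Ifngr1, Plac8 and Pglyrp1 in both sums of selected cells. These 8 genes entered the test through the group in which they were higher, so their calls are no independent support.

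Of 14 type 17 genes tested, 4 were higher (Il21 among them) and the other 10 did not pass, with a median log2 difference of 1.54. Il17a (chromosome 1, 20730905 to 20734496), the defining cytokine of type 17 cells, was at 1310 and 2649 CPM in the selected cells against 114 and 292 CPM in the other cells, a log2 difference of 2.99 ± 0.38 (SE, edgeR adjusted p 4.81e-12). It was higher in both libraries, but uneven: 30 of 85 and 3 of 5 thinned selected cells held a UMI, against 132 of 1706 and 130 of 1239 other cells, and 1 cell carried 26.5% and 63.6% of the thinned UMIs in replicates 1 and 2. Il21, a cytokine that helps B cells and that type 17 cells make, had 6 and 5 thinned UMIs in the selected cells (14.2 and 201 CPM against 1.18 and 0 CPM) and entered the test through these alone. Ccr6, the receptor of CCL20, was at 7.10 and 281 CPM against 1.65 and 4.54 CPM (3.75 ± 0.80, edgeR adjusted p 0.000728), and all its thinned UMIs in the selected cells of replicate 2 came from 1 cell; with another thinning seed its edgeR adjusted p was 0.153. Il17f passed too (4.77 ± 0.73), yet 92.9% of its 14 UMIs in replicate 1 lay in 1 cell, and its difference was 0.38 when 3 or more UMIs of each selection gene were required. Il21 did not pass without thinning (edgeR adjusted p 0.878) or by DESeq2 (adjusted p 0.375). Rora, a transcription factor gene of type 17 cells, was at 33.1 and 201 CPM against 9.77 and 79.0 CPM and did not pass (1.26 ± 0.65, edgeR adjusted p 0.860). Iltifb also rose (4.18 ± 0.52), but it is a near-identical copy of Il22 that shares its reads, so it is not independent of the selection. The summed γδ T cell list, cells known for type 17 cytokines, was at 8.29 and 49.2 CPM in the selected cells against 2.88 and 26.4 CPM. Most of the sum in the selected cells was Blk (8.04 and 37.65 CPM). Sox13 was at 0.251 and 11.59 CPM against 0.688 and 3.44 CPM, and Cd163l1 had 0 UMIs in the selected cells. Trdc, counted in replicate 2 alone, was at 0 against 15.0 CPM. The part of γδ T cells was not tested.

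Of 7 genes tested from the type 2 list, with the selection genes left out, 2 were higher and the other 5 did not pass, with a median of 1.27. Il5 (chromosome 11, 53720794 to 53725106), which promotes eosinophils, was at 40.2 and 0 CPM in the selected cells against 3.18 and 0.487 CPM (log2 3.48 ± 0.62, edgeR adjusted p 8.29e-06), from 5 cells of replicate 1 of which 1 held 52.9% of the UMIs. Ccl17, a ligand of CCR4, was at 166 and 0 CPM against 6.36 and 0.487 CPM (4.52 ± 0.56, edgeR adjusted p 2.33e-12) and was found in 17 thinned selected cells of replicate 1. Both rested on replicate 1, and the Il5 difference was 0.41 when 3 or more UMIs of each selection gene were required. Ccl1, a ligand of CCR8, was at 4530 and 201 CPM against 938 and 232 CPM and did not pass (1.27 ± 0.46, edgeR adjusted p 0.331), with replicate 2 going the other way. The type 2 factor Gata3 was at 59.1 and 80.3 CPM against 29.9 and 37.0 CPM and did not pass (0.78 ± 0.62, edgeR adjusted p 0.999). Il1rl1, the IL-33 receptor of many type 2 cells, had 0 UMIs in both thinned sets of selected cells, which cannot show its absence. Its thinned level in the other cells was 1.41 and 0 CPM, below the 2.37 CPM of 1 UMI in the selected cells of replicate 1. Unthinned, it was at 2.01 and 0 CPM in the selected cells against 1.24 and 0.28 CPM.

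The selected cells of replicate 1 can be split by the cytokine they held. The split leaves out 2 of the 85 cells, which held neither Il22 nor Il4 or Il13 at 2 or more UMIs. Of these, 1 held 1223 UMIs of Il17a, the most of any selected cell of replicate 1 and 26.5% of their Il17a UMIs. The counts below are over unthinned cells of 1 library, not matched for depth, and differences between the sets were not tested. Il17a was at 2 or more UMIs in 12 of 16 cells with Il22 and no Il4 or Il13, in 11 of 20 with both kinds and in 18 of 47 with Il4 or Il13 and no Il22. Ccr6 was at 2 or more UMIs in 9, 2 and 7 of these cells. Gata3 was in 6 of 16, 13 of 20 and 26 of 47, and Il5 in 0, 2 and 6. Tnfrsf4 was in 16 of 16, 20 of 20 and 45 of 47, and Lta in 14, 18 and 42. In all, 29 selected cells of replicate 1 held Il17a together with Il4 or Il13, and barcodes that hold more than 1 cell were not looked for.

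Of 17 costimulatory and activation receptor genes, 3 were higher and 1 lower, with a median of 0.41. Tnfrsf4 (OX40, chromosome 4, 156013843 to 156016612), a receptor that prolongs helper T cell responses, was at 986 and 1044 CPM in the selected cells against 159 and 32.5 CPM (log2 3.21 ± 0.37, edgeR adjusted p 9.42e-14). It was widespread, with a UMI in 80 of 85 and 3 of 5 thinned selected cells. Cd40lg, the ligand by which helper T cells act on B cells, was at 87.5 and 161 CPM against 5.42 and 9.41 CPM (3.78 ± 0.55, edgeR adjusted p 1.08e-08), and Cd200 at 364 and 120 CPM against 49.1 and 9.57 CPM (2.79 ± 0.51). Cd27 was lower, at 63.9 and 0 CPM against 195 and 198 CPM (-2.03 ± 0.52), and did not pass by DESeq2 (adjusted p 0.106). The IL-2 receptor chain Il2ra was at 241 and 642 CPM against 156 and 175 CPM and did not pass (0.77 ± 0.39, edgeR adjusted p 0.860), and Tnfrsf9 (4-1BB) did not pass at 367 and 1164 CPM against 530 and 798 CPM. Of 10 coinhibitory genes, Btla was higher (3.08 ± 0.52, with 0 UMIs in the selected cells of replicate 2) and Cd160 lower (-2.93 ± 0.74). Neither passed by DESeq2 (adjusted p 0.317 and 0.0735), and Btla did not pass when the selection genes were taken out before thinning (edgeR adjusted p 0.524). Pdcd1 (PD-1) did not pass at 121 and 442 CPM against 56.8 and 79.3 CPM (1.27 ± 0.48, edgeR adjusted p 0.369).

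Of 20 further cytokine and chemokine genes, 3 were higher and 2 lower, with a median of 0.22. Lta, lymphotoxin alpha, was at 620 and 1003 CPM in the selected cells against 99.97 and 159 CPM (log2 2.30 ± 0.36, edgeR adjusted p 2.06e-07), in 56 of 85 and 5 of 5 thinned cells. Tnfsf11 (RANKL) was at 175 and 80.3 CPM against 33.8 and 15.1 CPM (2.16 ± 0.57), with edgeR adjusted p of 0.084 when the selection genes were taken out before thinning, and Cxcl3 rose in replicate 1 with 0 UMIs in the selected cells of replicate 2 (3.05 ± 0.54; DESeq2 adjusted p 0.535). Csf2 (GM-CSF) was at 52.0 and 321 CPM against 19.9 and 44.3 CPM and did not pass (1.58 ± 0.59, edgeR adjusted p 0.355), nor did Tnf (0.82 ± 0.47). Igfbp7 was also among the largest rises, at 125 and 120 CPM against 10.8 and 2.27 CPM (3.54 ± 0.54). Ebi3, a subunit of IL-27 and IL-35, was at 28.4 and 120 CPM against 2.002 and 0.162 CPM, the RNA sensor gene Ifih1 at 35.5 and 80.3 CPM against 2.47 and 1.62 CPM and Mpzl2 at 18.9 and 120 CPM against 1.77 and 0.973 CPM, on 15 or fewer thinned UMIs each in the selected cells of replicate 1.

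Of 13 S100, galectin and annexin genes, 3 were higher and the other 10 did not pass, with a median of 0.38. They were S100a4 at 317 and 803 CPM in the selected cells against 50.9 and 39.1 CPM (2.98 ± 0.42, edgeR adjusted p 2.90e-09), Lgals1 (galectin 1) at 2032 and 2448 CPM against 581 and 459 CPM (1.72 ± 0.38) and S100a6 at 726 and 2087 CPM against 259 and 482 CPM (1.40 ± 0.35). All 3 were higher in both libraries. With cells thinned to 3000 UMIs, Lgals1 (edgeR adjusted p 0.057) and S100a6 (0.357) did not pass. Among thinned cells of a matched UMI range none of the 3 passed (edgeR adjusted p 0.802 for S100a4, 0.677 for Lgals1 and 0.677 for S100a6). Of 15 NF-kB genes 1 was higher, the inhibitor gene Nfkbia, at 1079 and 1003 CPM against 304 and 350 CPM (1.36 ± 0.37, edgeR adjusted p 0.0255). Of 21 lineage transcription factor genes, 1 was higher and 2 were lower. Zbtb16 (PLZF), the factor of innate-like T cells such as NKT cells, was at 26.02 and 201 CPM against 3.77 and 22.4 CPM (2.59 ± 0.70, edgeR adjusted p 0.0249), with a UMI in 9 of 85 and 4 of 5 thinned selected cells against 31 of 1706 and 102 of 1239 other cells. It did not pass with another thinning seed (edgeR adjusted p 0.183), nor did Nfkbia (0.0746). The summed NKT list, which holds Zbtb16 itself, was at 53.7 and 72.4 CPM in the selected cells against 38.4 and 33.8 CPM, with Klrb1c and Slamf6 at 0 UMIs in the 5 cells of replicate 2, and its part was not tested. Ikzf2 (Helios) was lower (-2.94 ± 0.67), as was Eomes (-3.70 ± 1.06; DESeq2 adjusted p 0.129).

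**Figure D3:**
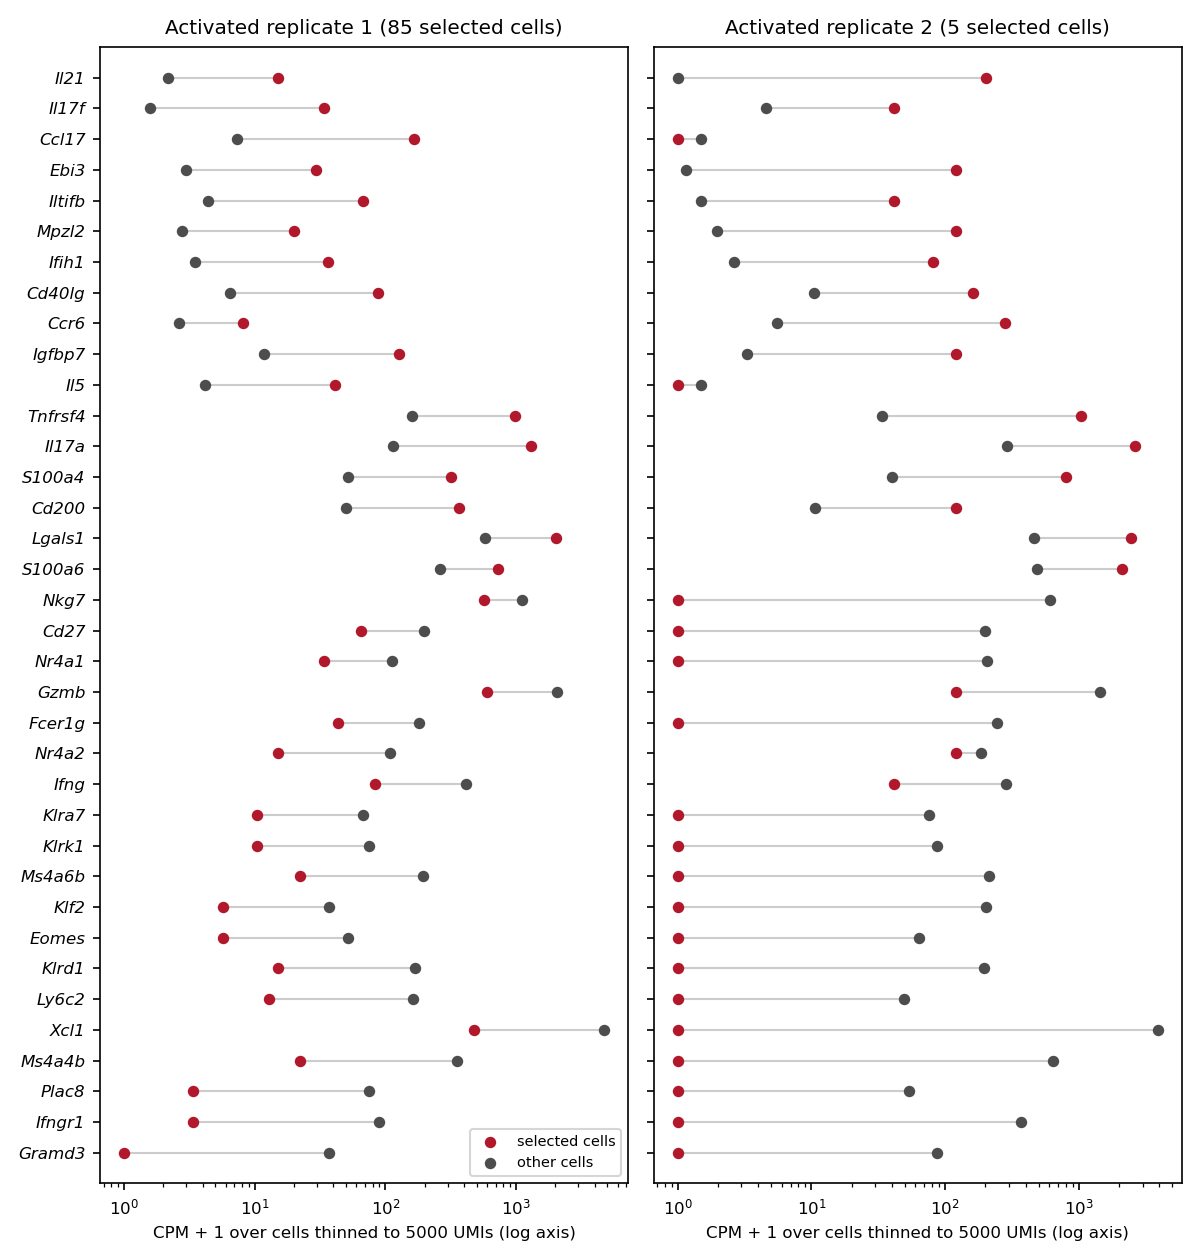
Points are CPM + 1 over cells thinned to 5000 UMIs (log axis) in the selected cells (red) and the other cells (grey) for 36 named genes past adjusted p 0.05, ordered by log2 difference; a point at 1 stands for 0 UMIs. Of these genes 17 were higher and 19 lower, and many lower genes had 0 UMIs in the 5 selected cells of replicate 2.

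Among genes lower in the selected cells, Xcl1 (chromosome 1, 164931644 to 164935527), a chemokine of cytotoxic lymphocytes, was at 480 and 0 CPM against 4748 and 3910 CPM in the other cells (log2 -4.16 ± 0.49, edgeR adjusted p 9.72e-14). The Xcl1 call was lost by DESeq2 (-6.37, adjusted p 0.425) and by edgeR without thinning (-4.65, adjusted p 0.855). Of 9 cytotoxic effector genes, 2 were lower and the other 7 did not pass, with a median of -1.30. Gzmb (granzyme B) was at 598 and 120 CPM against 2058 and 1446 CPM (-2.45 ± 0.44, edgeR adjusted p 9.33e-06), with 34.8% of the UMIs of replicate 1 in 1 cell, and Nkg7, a granule protein gene, at 565 and 0 CPM against 1110 and 606 CPM (-1.70 ± 0.42). Both calls were lost by DESeq2 (adjusted p 0.177 for Gzmb and 0.996 for Nkg7) and by edgeR without thinning (adjusted p 0.855 and 0.894). Of 13 type 1 genes, Ifng and Eomes were lower and the median was -0.61. Ifng, the type 1 cytokine, was at 82.8 and 40.1 CPM against 415 and 286 CPM (-2.58 ± 0.47, edgeR adjusted p 1.42e-05), while the type 1 factor Tbx21 did not pass at 26.02 and 0 CPM against 23.9 and 24.7 CPM (-0.17 ± 0.73).

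The NK and innate-like receptor list had the lowest median of the 25 lists, -3.27 over 11 genes tested (-3.11 with the 1 gene at 0 UMIs in the selected cells set to its bound of 3 UMIs), with 4 lower. The summed NK cell markers given above went the same way, and their part was not tested. In the other cells most of that sum was Klrk1 (62.35 and 128.9 CPM), itself among the 4 lower genes, and Klre1 (21.48 and 24.72 CPM). Ncr1 and Klra8 had 0 UMIs in the selected cells of both libraries, but they show no difference. In the other cells Klra8 also had 0 UMIs, and Ncr1 had 0 and 3. Klrd1 (CD94) was at 14.2 and 0 CPM against 168 and 194 CPM (-3.88 ± 0.68, edgeR adjusted p 6.51e-06), Fcer1g, an adaptor of activating receptors, at 42.6 and 0 CPM against 180 and 243 CPM (-2.51 ± 0.54) and Klrk1 (NKG2D) at 9.46 and 0 CPM against 74.3 and 85.8 CPM (-3.27 ± 0.86; DESeq2 adjusted p 0.0647). Klra7 was the other (DESeq2 adjusted p 0.11), and its Ly49 family holds near-identical genes whose reads can be assigned to the wrong member. Other genes with large differences were Ms4a4b at 21.3 and 0 CPM against 352 and 642 CPM (-4.47 ± 0.55), Ly6c2 (-3.95 ± 0.78) and Ms4a6b (-3.52 ± 0.62). Ifngr1, the IFN-γ receptor chain, had 1 thinned UMI in the selected cells (2.37 and 0 CPM against 88.7 and 368 CPM). Over unthinned cells Ifngr1 was at 15.9 and 40.7 CPM against 54.8 and 243 CPM, and among cells of a matched UMI range its difference was -0.83 (edgeR adjusted p 0.467). Plac8 also had 1 thinned UMI in the selected cells, and unthinned it was at 8.08 and 0 CPM against 49.5 and 34.1 CPM; it did not pass with at most 5% mt- UMIs (-2.54, edgeR adjusted p 0.0919). Gramd3 had 0 thinned UMIs in the selected cells of both libraries against 36.1 and 86.3 CPM in the other cells, so its fitted difference is no measure of size.

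Of 22 TCR signal and NFAT target genes, 3 were lower and the other 19 did not pass, with a median of -0.74. Besides Xcl1 they were the orphan receptor genes Nr4a1, at 33.1 and 0 CPM in the selected cells against 112 and 203 CPM (-2.24 ± 0.59), and Nr4a2, at 14.2 and 120 CPM against 107 and 186 CPM (-2.53 ± 0.64). Nr4a1 did not pass by DESeq2 (adjusted p 0.124) and Nr4a2 did not with another thinning seed (-1.57, edgeR adjusted p 0.25); among cells of a matched UMI range without thinning they were at -0.40 and -1.02 and did not pass. Nfatc1 did not pass (0.39 ± 0.59), nor did Irf4 (0.12 ± 0.56) or Dusp2 (0.27 ± 0.40). Of 13 STAT5 and SOCS target genes, Bcl2, an inhibitor of cell death, was at 63.9 and 0 CPM against 356 and 587 CPM (-3.00 ± 0.46, edgeR adjusted p 7.22e-08; DESeq2 adjusted p 0.428) and the kinase gene Pim1 at 125 and 321 CPM against 289 and 618 CPM (-1.42 ± 0.40; edgeR adjusted p 0.0822 with another thinning seed). Of 19 quiescence and homing genes, Klf2, a factor of resting T cells, was the 1 that passed, at 4.73 and 0 CPM against 36.1 and 201 CPM (-3.64 ± 0.94; DESeq2 adjusted p 0.129), with a median of -1.18 over the list. Of 11 cytokine receptor genes, Ifngr1 was the 1 that passed.

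Few metabolic and growth genes passed, and of all genes tested 0.615% were higher and 0.38% lower. Of 26 proliferation genes, 1 was higher, Ube2c, at 156 and 522 CPM in the selected cells against 61.0 and 32.8 CPM (1.96 ± 0.48, edgeR adjusted p 0.00856), but it did not pass with another thinning seed (edgeR adjusted p 0.655) and was lower among cells of a matched UMI range without thinning (-0.43, edgeR adjusted p 0.772). Hmgb2 and Stmn1 did not pass. Of 16 glycolysis genes, Slc16a3, a lactate carrier, was higher (2.25 ± 0.60), and of 15 ATF4 and amino acid stress genes Nupr1 was (2.23 ± 0.59). Slc16a3 had 47.4% of its UMIs in 1 cell of replicate 1, was 0.70 with cells thinned to 3000 UMIs and did not pass by DESeq2 (adjusted p 0.27). Nupr1 had 0 UMIs in the selected cells of replicate 2 and did not pass with another thinning seed (edgeR adjusted p 0.136) or by DESeq2 (adjusted p 0.996). No gene was called in either direction among 20 nucleolus and MYC genes, 20 oxidative phosphorylation genes, 16 cholesterol genes, 11 AP-1 genes, 10 interferon response genes and 13 chemokine receptor and integrin genes by edgeR. Of these 90 genes, 4 were higher and 5 lower at an unadjusted p under 0.05 by edgeR. Over all 8946 genes tested, 216 were higher and 298 lower at that threshold. DESeq2 called 0 of the 90. The list medians lay between -0.44 (AP-1) and 0.12 (interferon response).

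**Figure D4:**
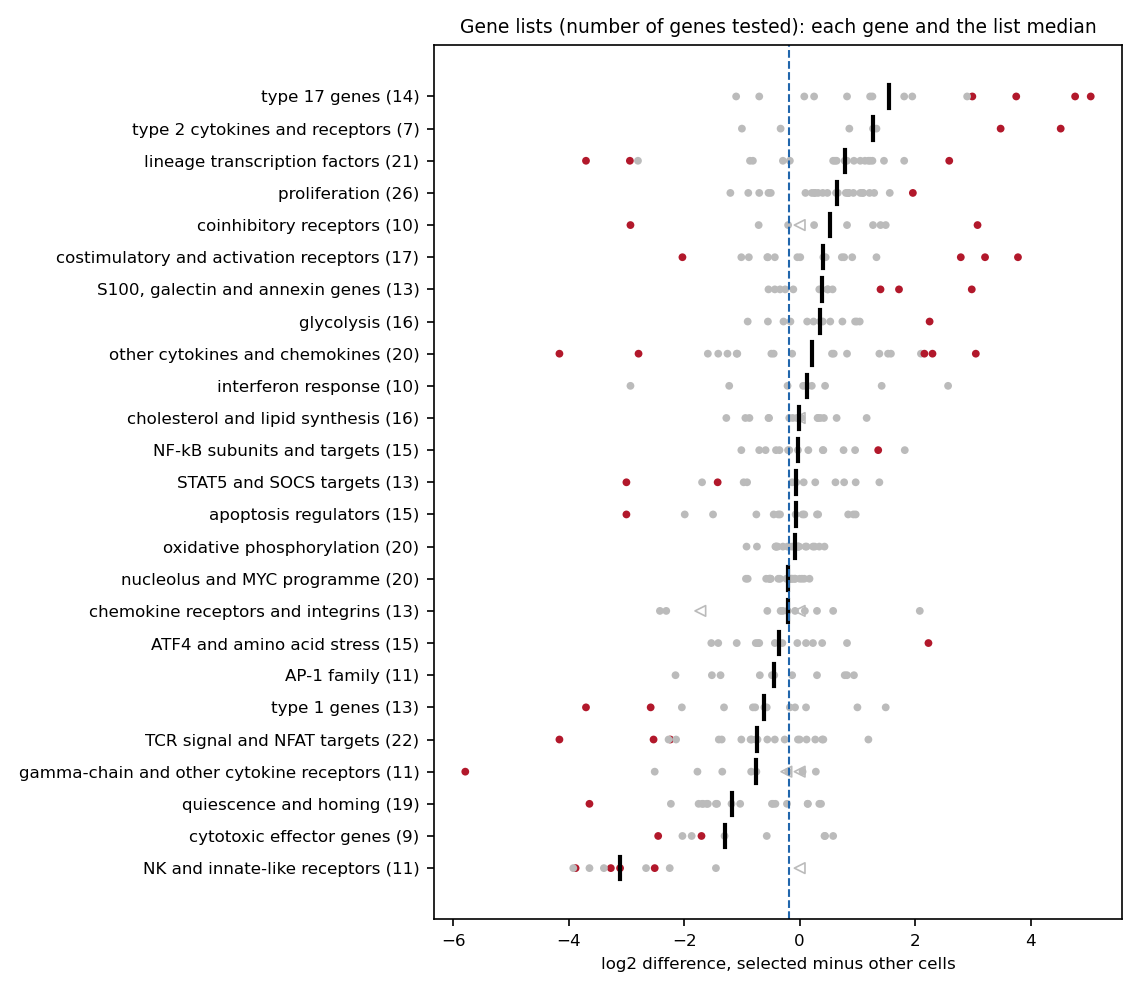
Each point is a gene placed by its log2 difference, selected minus other cells, in the list it belongs to (red, adjusted p under 0.05; grey, not past it; open triangles, 0 UMIs in the selected cells of both libraries, drawn at the bound that 3 UMIs give). Black bars are list medians, from 1.54 in type 17 genes to -3.11 in NK and innate-like receptors, and the dashed line is the median of all genes tested.

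Among cells of similar depth most differences were smaller and kept their direction. Taking the cells between the 10th and 90th percentile of the selected cells' UMIs left 67 selected and 263 other cells in replicate 1 and 3 selected and 129 other cells in replicate 2, with medians of 44748 and 63264 UMIs in the selected cells against 35304 and 56044 in the other cells. Without thinning, a comparison added after the data were seen, 88 of the 89 genes kept their direction in these cells and 42 passed (25 higher and 17 lower). The 89 genes were called on sums that include these cells. Neither the kept directions and calls nor the medians of these genes are therefore an independent test. The median of the higher genes was 1.55, against 2.54 over all cells, and that of the lower genes -1.73, against -2.86. Cd40lg remained past the test (1.95 ± 0.36, edgeR adjusted p 0.000109), as did Ccl17 (3.12 ± 0.38), Lta (1.14 ± 0.17), Nfkbia (1.42 ± 0.18), Zbtb16 (2.60 ± 0.48), Klrd1 (-2.55 ± 0.36) and Klrk1 (-3.29 ± 0.42). Tnfrsf4 was at 977 and 872 CPM in the selected cells against 516 and 127 CPM in the other cells and no longer passed (1.83 ± 0.85, edgeR adjusted p 1.0). Il17a was at 1021 and 1017 CPM against 406 and 68.9 CPM (2.57 ± 1.24) and did not pass. Xcl1 (575 and 27.9 CPM against 3232 and 6953 CPM), Gzmb (516 and 44.7 against 2168 and 6771 CPM) and Ifng (79.1 and 50.3 against 570 and 1518 CPM) had differences at least as large as over all cells. They did not pass (SE 2.43, 2.43 and 0.87, edgeR adjusted p of 1.0). The Ifng difference was -3.48, large beside its SE, and why its call was lost was not tested. With the same cells thinned to 5000 UMIs, 2 genes were higher and 5 lower of 4744 tested, and of the 7 genes just named as past the test the calls of Cd40lg (1.90, edgeR adjusted p 0.149), Lta (0.95, 1.0), Nfkbia (1.01, 1.0), Zbtb16 (1.39, 1.0), Klrd1 (-1.68, 0.929) and Klrk1 (-2.97, 0.357) were lost. How much of the differences goes with depth was not tested.

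**Figure D5:**
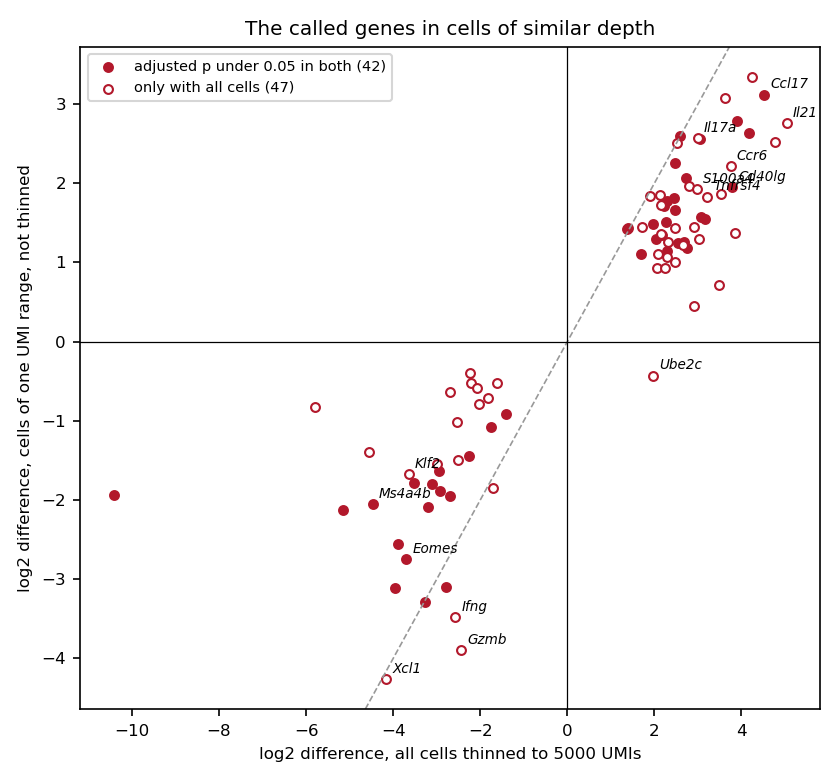
Each point is one of the 89 genes past adjusted p 0.05, with its log2 difference over all thinned cells on the x axis and among cells of a matched UMI range, not thinned, on the y axis; filled points passed in both. Most points lie closer to 0 on the y axis than on the x axis, and Ube2c lies on the other side of 0; the point farthest left is Gramd3, whose x value is no measure of size.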

How the data were processed

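The matrices deposited by the authors hold unnormalized UMI counts for each gene in each barcode. Per the submitters' processing notes, Cell Ranger 2.1.0 and 3.0.1 were used with mm10 (GRCm38); per the file headers, the kit v3 matrices come from software version 3.0.2. Cells with at least 200 genes and at most 10% mt- UMIs were kept, and no doublet caller was run. Each cell was thinned to 5000 UMIs (shallower cells were left out, so that 1706 of 1706 and 1239 of 1544 other cells remained), UMIs were summed per library over selected and other cells, and the 4 sums were tested with edgeR 4.0.16 (R 4.3.3; filterByExpr, TMM, robust quasi-likelihood F test, library as a block, 1 residual degree of freedom). The median prior degrees of freedom over genes were infinite, so most genes took their spread from an estimate shared over genes. The common biological coefficient of variation was 0.191. A gene whose UMIs lie in 1 cell can then be tested as if it varied like the rest. Only the 27514 gene IDs found in both references (27998 and 31053 genes) entered, and the 6 selection genes were left out. The block is the library itself, since both sums of a pair are cells of the same library. CPM are UMIs per 1000000: over thinned cells of the UMIs of shared genes, elsewhere of all UMIs. The selected sums held 425000 and 25000 UMIs and the other sums 8530000 and 6195000; total UMIs of the activated libraries were 34521240 and 25347948. Named genes are the 6 selection genes, the 10 largest rises and falls at 50 CPM or more that had the same direction in both libraries, and per list up to 4 past and 2 not past the test; further genes were named after their values were seen (among them Tnf, Csf2, Gata3, Tbx21, Tnfsf11, Nfatc1, Irf4, Il1rl1 and the genes split by cytokine). Members and lists were chosen with earlier results of these data known. Coordinates are from GENCODE vM21, in which 102 of 102 named genes matched, and promoter windows from RefSeq (7 of 7 genes matched). DESeq2 1.42.0 and other settings were tried as alternatives.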

Additional observations from a re-analysis of the deposited data

How the results depend on the processing

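The number of higher and lower genes was 55 and 34. It was 17 and 8 with no replicate block (both sums of a pair treated as unpaired), 93 and 54 with cells thinned to 8000 UMIs, 37 and 12 with 3000 UMIs, 319 and 236 without thinning, 31 and 0 without cells above the 90th percentile of UMIs (24 and 1 selected cells; 176 and 165 at an unadjusted p under 0.05 by edgeR), 2 and 5 in the thinned cells of a matched UMI range, and 39 and 20 with 3 or more UMIs of each selection gene. By DESeq2 it was 37 and 25. With RLE size factors, another random seed, the selection genes taken out before thinning, no filter on low counts, or at most 5% mt- UMIs, it stayed between 55 and 64 higher and 29 and 42 lower. The matched UMI range without thinning (80 and 47) was chosen after seeing the data. In each setting that keeps both libraries the tested genes of the 89 kept their direction, except 1 in each matched-range setting and 2 without the deepest cells. Ube2c reversed to -0.71 in the thinned matched range and to -0.43 without thinning, and the cause was not tested. For values without a replicate, a small count was added to each sum. The log2 difference of Ccl9 was then 0.30 without replicate 1 and -2.60 without replicate 2. Its positive sign comes from the added count, since Ccl9 had 0 UMIs in the selected cells of replicate 2 against 16.2 CPM in the other cells. Leaving out a library leaves 1 pair and no residual degrees of freedom, so it gave values with no test. The number of selected cells was 56 in replicate 1 with 3 or more UMIs of each gene, 23 and 0 with 4 or more genes (no test could be fitted, since replicate 2 has none), and 10 in replicate 1 with the rule applied to thinned cells. In replicate 2 the selected sum holds 5 cells, which limits what it can show of scarce genes.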

Other observations

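Among cells of a matched UMI range, not thinned, some genes passed edgeR's test that had not passed over all thinned cells. Cd74, the invariant chain of antigen presentation, was at 56.6 and 100.6 CPM in the selected cells of replicates 1 and 2 against 15.4 and 9.53 CPM in the other cells (log2 difference 2.44, edgeR adjusted p 3.06e-08). Pdcd1, the inhibitory receptor PD-1, was at 134 and 341 CPM against 81.1 and 82.2 CPM (1.35, edgeR adjusted p 0.000266). Irf8, a transcription factor gene, was lower (-1.21). These genes were picked after their values were seen, and the comparison was added after the data were seen.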
